A study of Mus musculus with 18 samples.

Results

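The 6 genes followed here belong to the mucosal antibody system and were measured in mice on day 7 after bone marrow transplantation. They are the heavy chain constant genes of IgA and IgM (Igha, Ighm), the kappa light chain constant gene (Igkc), the joining chain gene Jchain, the polymeric immunoglobulin receptor gene Pigr and the B cell inhibitory receptor gene Cd22. They were taken by symbol as 6 of the 53379 genes of the count table, and all 6 had a row. Plasma cells in the gut wall join IgA or IgM monomers into polymers with the J chain. The polymeric immunoglobulin receptor on epithelial cells binds these polymers at the basal side, carries them through the cell and releases them at the lumen with a cleaved piece of itself, the secretory component. In mice the receptor is also carried by hepatocytes and leads polymers into bile.

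Recipients were female BALB/cJ mice (an inbred strain) aged 6 to 8 weeks. All were lethally irradiated and received 10000000 bone marrow cells, given with 1000000 T cells (BMT) or without them (BM). The sources used here do not give the donor strain. RNA came from bulk liver (code LIV) and from epithelial fractions of both parts of the intestine (codes SI and LI), with 3 libraries per treatment in each tissue, 18 in all. The library codes carry the same 6 numbers in every tissue, called mouse numbers here, and that libraries of 1 number come from 1 animal is read from these codes alone. The labels do not state that different numbers are separate animals, and every p-value reflects only how far these samples spread. Sample titles and library codes disagree, since libraries coded SI are titled large intestine and libraries coded LI are titled small intestine. The summed level of 12 small intestinal markers was 15010 to 24360 CPM (counts scaled to library size) in SI BMT, 21160 to 26530 in SI BM, 567 to 842 in LI BMT and 698 to 736 in LI BM. That of 10 large intestinal markers was 53.6 to 134 CPM in SI BMT, 54.3 to 600 in SI BM, 5224 to 8251 in LI BMT and 10340 to 11410 in LI BM. The markers thus follow the codes and go against the titles, and the codes are used throughout. Depth was 18845483 to 25610937 counts per library, so that 3 counts, taken as the floor, stood at 0.117 to 0.159 CPM. Mitochondrial transcripts took 2.77 to 10.7% of counts, and within each code all BMT libraries lay below all BM libraries. Each ± on a level is an SD over 3 libraries, and each ± on a log2 fold change (BMT over BM) is a standard error. Calls are at an adjusted p of 0.05 in edgeR over all genes tested.

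The IgM and IgA heavy chains share the feature that makes them partners of the J chain, a tailpiece at the end of the secreted form. The last 54 coding bases of the secreted transcripts are shown for this reason (GENCODE M21, GRCm38, minus strand, 5′ to 3′), with the codon of the next to last residue, the cysteine that takes part in polymer bonds, in capitals. That of Ighm lies at chr12:113420870-113420923 and that of Igha at chr12:113258771-113258824. They are identical at 35 of 54 bases (64.8%) and at 10 of 18 encoded residues (55.6%).
Ighm tailpiece: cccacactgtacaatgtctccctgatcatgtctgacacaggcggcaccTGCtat
Igha tailpiece: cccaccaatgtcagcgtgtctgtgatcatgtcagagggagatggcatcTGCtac

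The promoters of Pigr, Jchain and Cd22 are shown because these genes are read in different cells, Pigr in epithelium and hepatocytes, Jchain in antibody-secreting cells and Cd22 in B cells. Each run holds the 250 bases before the start that the RefSeq table gives (GRCm38.p6, 5′ to 3′ on the gene's strand), with E boxes (CANNTG, the same on both strands) in capitals. They lie at chr1:130826434-130826683 on the plus strand for Pigr, at chr5:88527898-88528147 on the minus strand for Jchain and at chr7:30879029-30879278 on the minus strand for Cd22. The RefSeq start of Cd22 lies 1314 bases inside the gene as counted, since 11 of its 16 GENCODE M21 transcripts start further upstream, so its window is that of 1 start among several.
Pigr promoter: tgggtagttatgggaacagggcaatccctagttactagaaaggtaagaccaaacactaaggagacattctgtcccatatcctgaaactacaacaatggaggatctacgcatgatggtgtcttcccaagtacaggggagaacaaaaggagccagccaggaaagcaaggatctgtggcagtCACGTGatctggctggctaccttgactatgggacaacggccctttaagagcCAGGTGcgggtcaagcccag
Jchain promoter: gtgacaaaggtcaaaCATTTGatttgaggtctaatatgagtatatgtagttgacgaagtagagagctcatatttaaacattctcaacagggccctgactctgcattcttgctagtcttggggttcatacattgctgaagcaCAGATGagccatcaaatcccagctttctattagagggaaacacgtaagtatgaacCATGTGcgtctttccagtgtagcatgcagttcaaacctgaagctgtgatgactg
Cd22 promoter: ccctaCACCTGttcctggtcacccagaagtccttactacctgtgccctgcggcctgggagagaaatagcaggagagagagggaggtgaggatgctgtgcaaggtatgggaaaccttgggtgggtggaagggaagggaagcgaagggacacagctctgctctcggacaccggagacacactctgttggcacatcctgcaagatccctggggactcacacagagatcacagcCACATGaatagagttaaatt
Pigr holds 2 E boxes, CACGTG at 71 to 66 bases and CAGGTG at 20 to 15 bases before the start. Jchain holds 3 and Cd22 holds 2. At least 1 E box is found in 66.2% of 32851 promoters of this length. None of the 3 promoters holds the octamer ATTTGCAT (1.6% of promoters), the ISRE core GAAANNGAA (7.13%), the GAS letters TTCNNNGAA (7.02%) or the kappa B letters GGGACTTTC (0.289%), searched on both strands. These are matches of letters in this window and describe the sequence alone.

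The members differed widely in level. Per kilobase of exon, liver BMT libraries averaged 301 ± 30.6 CPM of Pigr, 9.38 ± 2.14 of Igkc, 3.56 ± 0.296 of Ighm, 0.341 ± 0.114 of Jchain, 0.302 ± 0.0893 of Cd22 and 0.300 ± 0.227 of Igha. The gut libraries without added T cells held the most Pigr, at 1251 ± 49.9 CPM per kilobase in LI BM and 721 ± 75.3 in SI BM. The other 5 genes stood at or below 3.20 CPM per kilobase in all 4 intestinal groups on average. Antibody genes were thus a trace of these RNAs, and several values below rest on fewer than 10 counts. The genes lie, on GRCm38, at chr12:113254830-113260236 (Igha, ENSMUSG00000095079.6), chr12:113418558-113422730 (Ighm, ENSMUSG00000076617.9), chr6:70726435-70726966 (Igkc, ENSMUSG00000076609.2), chr5:88519809-88527891 (Jchain, ENSMUSG00000067149.6), chr1:130826684-130852249 (Pigr, ENSMUSG00000026417.13) and chr7:30865402-30880342 (Cd22, ENSMUSG00000030577.14). Counts are over their exons.

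**Figure D1:**
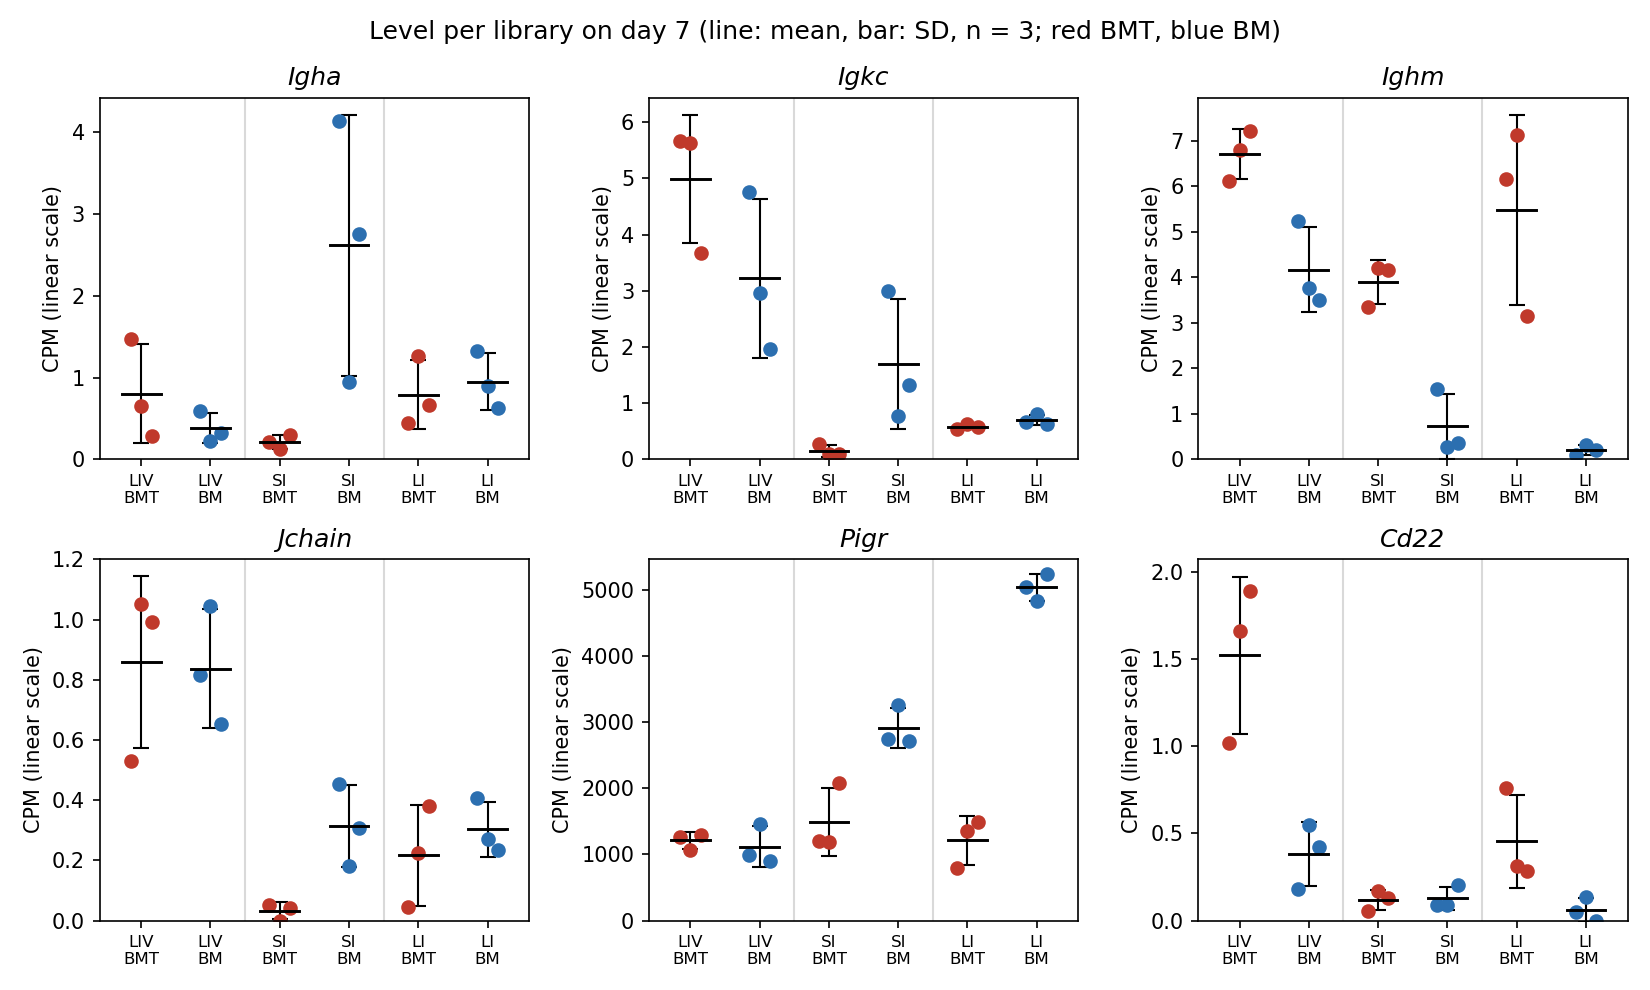
Level of each member in CPM on a linear axis from 0 (vertical) in the 3 libraries of each group (horizontal), with the mean as a line and the SD as a bar. Ighm is higher in BMT than in BM in every tissue with no overlap, Pigr is lower in BMT in both intestinal sets, and Igha and Igkc are lower in BMT in SI.

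With added T cells, Ighm rose in both intestinal sets, while Igkc did not rise in either. Ighm encodes the constant part of the mu heavy chain, which mature B cells carry on their surface as IgM and which a first round of plasma cells secretes. In LI it had 6.17, 7.14 and 3.15 CPM with BMT, against 0.102, 0.314 and 0.195 CPM with BM. In SI it had 3.34, 4.20 and 4.16 CPM with BMT, against 1.55, 0.271 and 0.358 CPM with BM. The groups did not overlap in either set, and the BM library of mouse 2 was the highest of its group in SI. The log2 fold change was 4.69 ± 0.44 in LI (adjusted p = 1.67e-05) and 2.44 ± 0.53 in SI (adjusted p = 0.007). Without the BM library of mouse 2, the SI value was 3.69. In raw counts the SI libraries held 63, 98 and 97 reads with BMT, against 34, 6 and 7 with BM. The LI libraries held 138, 159 and 66 reads with BMT, against 2, 7 and 5 with BM. Ighm passed the filter on low counts through BMT alone in LI, and through BMT and the BM library of mouse 2 in SI. Its adjusted p therefore adds no support to the read counts in LI and little in SI.

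In liver Ighm had 6.11, 6.80 and 7.22 CPM with BMT, against 5.25, 3.77 and 3.50 CPM with BM. All 3 BMT livers were above all 3 BM livers. The log2 fold change of 0.85 ± 0.22 did not pass the test in edgeR (adjusted p = 0.0501). It passed with no filter on low counts (0.0328), in DESeq2 (0.0192) and without the BM library of mouse 2 (0.0189), and adjusted p ran from 0.0189 to 0.17 over 12 alternatives. Ordered by mean level, the groups were LIV BMT at 6.71 ± 0.559, LI BMT at 5.49 ± 2.08, LIV BM at 4.17 ± 0.943, SI BMT at 3.90 ± 0.484, SI BM at 0.725 ± 0.712 and LI BM at 0.204 ± 0.107 CPM. Neighbours in this order overlapped except at the step between SI BMT and SI BM.

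Igha and Igkc, which together encode the constant parts of the common gut antibody, fell in SI. Igha had 0.212, 0.129 and 0.300 CPM in SI BMT, against 4.14, 0.950 and 2.76 CPM in SI BM. Igkc had 0.265, 0.0858 and 0.0857 CPM in SI BMT, against 3.00, 0.769 and 1.33 CPM in SI BM. No library of one treatment reached the range of the other for either gene, and the BM library of mouse 4 was the lowest of its group for both. The log2 fold changes were -3.54 ± 0.61 for Igha (adjusted p = 0.00191) and -3.53 ± 0.67 for Igkc (adjusted p = 0.00332). The Igkc value was -2.79 without the BM library of mouse 2 and -4.17 without the BMT library of mouse 6. The BMT side is thin, at 4, 3 and 7 reads of Igha and 5, 2 and 2 reads of Igkc. Igha and Igkc passed the filter on low counts in SI through the BM libraries alone. Their adjusted p-values in SI therefore add no support to the read counts. Over the group the CPM of Igkc was 0.0803 of that in BM, with an exact 95% counting interval of 0.0357 to 0.158. This interval, like the later ones on summed CPM, covers counting error only and leaves out the spread between libraries. In these bulk fractions, fewer cells of a type and less RNA per cell cannot be told apart.

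In LI neither gene changed detectably. Igha had 0.447, 1.26 and 0.667 CPM in LI BMT, against 1.32, 0.898 and 0.625 CPM in LI BM (log2 fold change -0.24 ± 0.44, adjusted p = 0.696). Igkc had 0.537, 0.628 and 0.572 CPM in LI BMT, against 0.662, 0.808 and 0.625 CPM in LI BM (-0.26 ± 0.34, adjusted p = 0.572). The treatments overlapped for both. In liver Igha had 1.47, 0.648 and 0.283 CPM with BMT, against 0.588, 0.227 and 0.326 CPM with BM (1.27 ± 0.67, adjusted p = 0.279). Igkc in liver had 5.66, 5.63 and 3.68 CPM with BMT, against 4.75, 2.96 and 1.96 CPM with BM (0.80 ± 0.38, adjusted p = 0.23). Liver held the most Igkc, at 4.99 ± 1.14 CPM in BMT and 3.22 ± 1.42 in BM, then SI BM at 1.70 ± 1.16, LI BM at 0.698 ± 0.097, LI BMT at 0.579 ± 0.0462 and SI BMT at 0.146 ± 0.104 CPM. In that order neighbours overlapped except LI BMT and SI BMT. For Igha the order was SI BM, LI BM, LIV BMT, LI BMT, LIV BM and SI BMT, from a mean of 2.62 CPM to one of 0.214 CPM, and every pair of neighbours overlapped.

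**Figure D2:**
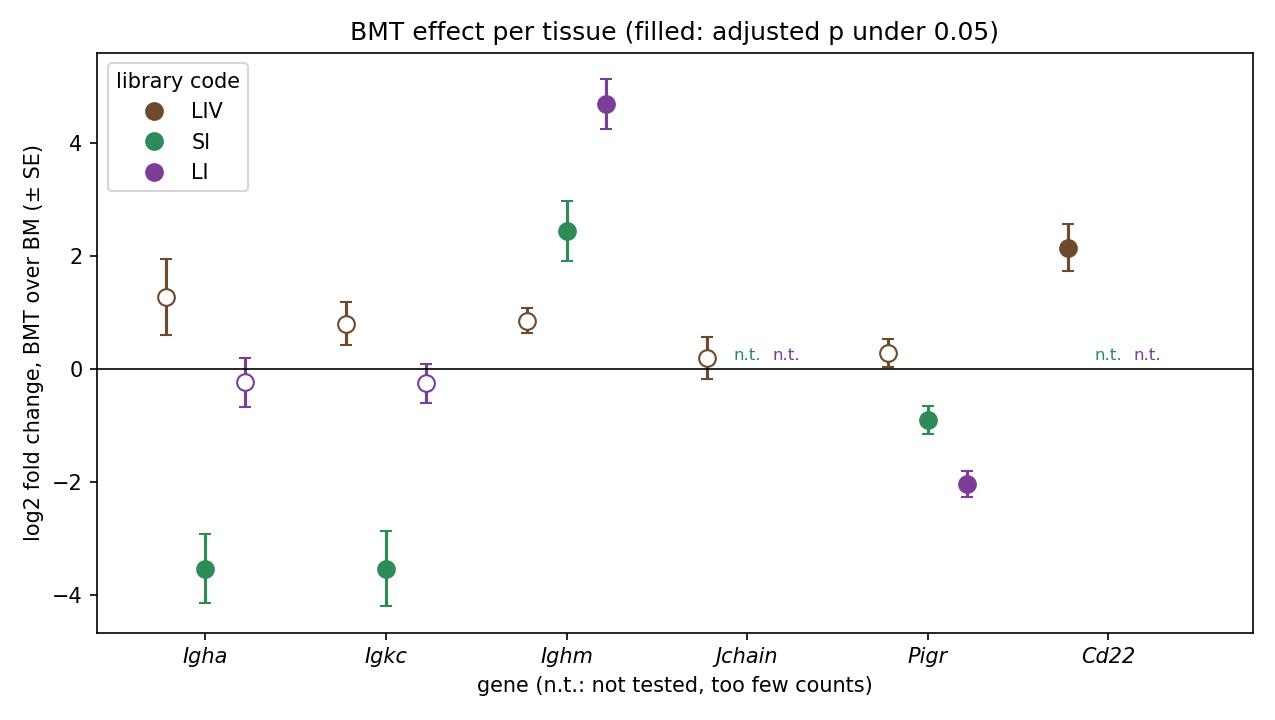
Log2 fold change of BMT over BM with its standard error (vertical) for each member in the 3 tissues (horizontal); filled points have an adjusted p under 0.05 and n.t. marks genes with too few counts to test. Ighm is above 0 in all 3 tissues, Igha and Igkc are near -3.5 in SI, and Pigr is at -0.90 in SI and -2.04 in LI.

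Of the 6 members, 1 of 6 tested was called in liver, where 10.8% of 14134 genes were called (7.46% higher and 3.35% lower in BMT). In SI all 4 tested members were called, 1 higher and 3 lower, where 23.4% of 14621 genes were called (11.6% higher, 11.8% lower). In LI 2 of 4 tested members were called, 1 higher and 1 lower, where 41.4% of 14880 genes were called (20.4% higher, 21% lower). The untested members had too few reads, and a low gene that passed this filter through 1 treatment alone had to differ, so the members' counts support nothing by themselves.

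Heavy chain constant reads were mostly of IgM in the intestinal BMT libraries and mostly of IgA in the intestinal BM libraries. Of these reads, Igha took 5.97, 2.97 and 6.67% in SI BMT, against 70.5, 75 and 87.1% in SI BM. It took 6.71, 14.8 and 17.5% in LI BMT, against 86.7, 74.1 and 72.7% in LI BM. No BMT library came near any BM library, and exact (Clopper-Pearson) 95% intervals did not meet either, with the highest BMT bound at 27.6% and the lowest BM bound at 49.8%. These intervals cover counting error only. Ighm took 94.5 ± 2.36% in SI BMT and 19.7 ± 7.68% in SI BM, and 86.4 ± 5.43% in LI BMT and 18.4 ± 10.3% in LI BM. With 3 libraries against 3, the exact two-sided permutation test gave p = 0.1 for each of these shares, the smallest it allows. As ratios within a library, these do not depend on scaling.

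**Figure D3:**
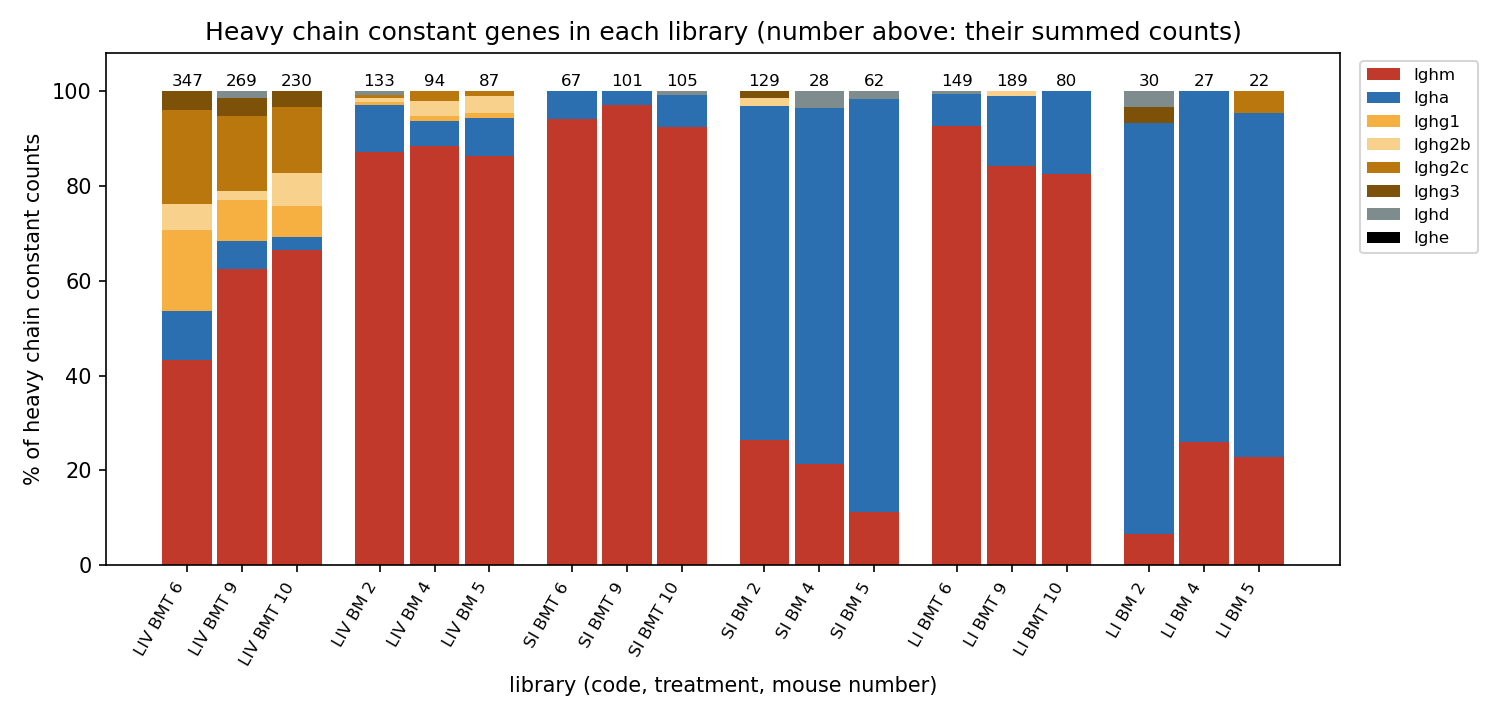
Share of each heavy chain constant gene in the reads of all 8 (vertical, %) in each of the 18 libraries (horizontal, code, treatment and mouse number), with the summed reads above each bar. IgA takes most of the bar in the intestinal BM libraries and IgM in the intestinal BMT libraries, and IgG genes appear in the liver BMT libraries.

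In the intestinal sets the rise of mu reads was not matched by reads of the kappa light chain or of variable segments. Per Igkc read, SI BMT libraries held 36.7 ± 20.9 Ighm reads and SI BM libraries 0.379 ± 0.125. LI BMT libraries held 9.45 ± 3.42 and LI BM libraries 0.285 ± 0.12 (exact permutation p = 0.1 in each set, no overlap). In liver the ratio was 1.42 ± 0.477 in BMT and 1.39 ± 0.354 in BM (exact permutation p = 1). The 185 heavy chain variable segments, which a complete antibody message needs, summed to 1, 0 and 3 reads in SI BMT, against 10, 4 and 10 in SI BM. In LI they summed to 4, 7 and 1 reads with BMT, against 5, 2 and 5 with BM, and in liver to 30, 32 and 35 with BMT, against 13, 15 and 7 with BM. Liver therefore held variable segment reads beside its mu reads, whereas SI BMT held 63 to 98 mu reads beside 0 to 3 such reads. The summed level of 14 T cell markers ran from 217 to 324 CPM in SI BMT, against 4.39 to 14.4 in SI BM. It ran from 407 to 656 CPM in LI BMT, against 7.08 to 9.25 in LI BM, and from 76.3 to 78.9 CPM in LIV BMT, against 4.57 to 9.37 in LIV BM. All 14 T cell markers rose in each tissue, where 7.46% of all genes were higher in liver, 11.6% in SI and 20.4% in LI. Some of them passed the filter on low counts through BMT alone. Cd2 in SI, for example, had 190, 324 and 232 reads with BMT, against 0, 0 and 1 with BM. Nothing is read from this tally of calls. The part of T cells in the Ighm values was not tested.

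**Figure D4:**
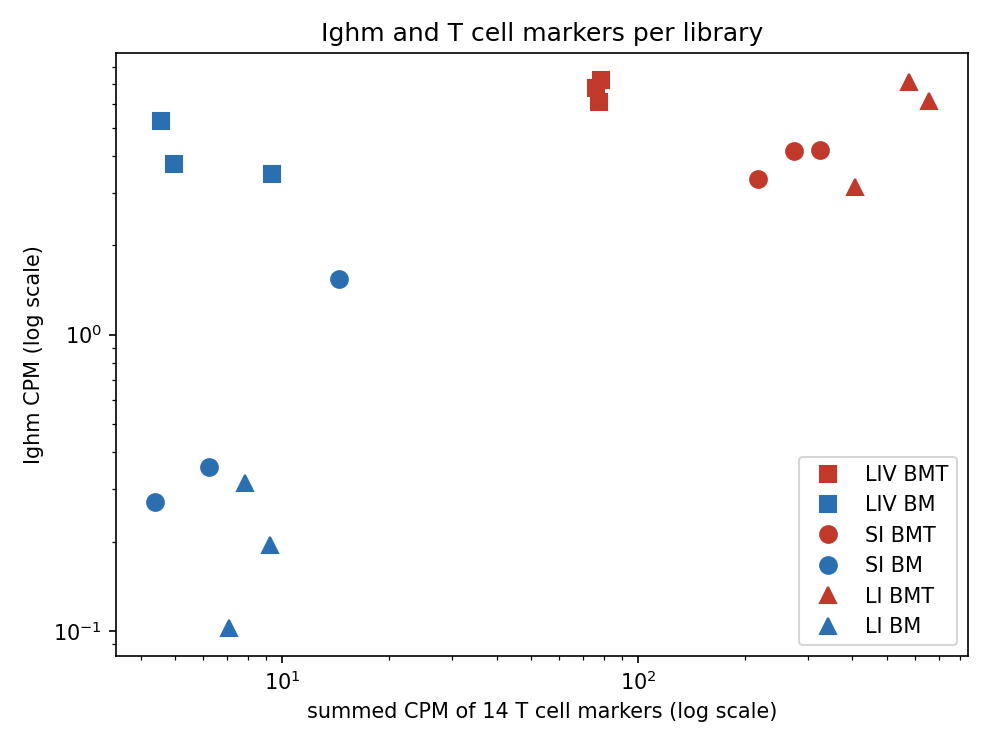
Ighm level (vertical, CPM, log scale) against the summed level of 14 T cell markers (horizontal, CPM, log scale) in the 18 libraries; red marks BMT, blue BM, squares LIV, circles SI and triangles LI. The intestinal libraries form a low BM cloud and a high BMT cloud on both axes, while LIV BM libraries hold Ighm at 3.50 to 5.25 CPM with few T cell marker reads.

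Reads of the IgG constant genes were more than a trace in liver alone, where Ighg1 and Ighg2c rose with added T cells. These genes encode the gamma heavy chains of serum IgG. Ighg2c had 69, 43 and 32 reads in LIV BMT, against 1, 2 and 1 in LIV BM, and Ighg1 had 59, 23 and 15 reads against 1, 1 and 1. No BM liver came near a BMT liver for either gene. The log2 fold changes were 5.12 ± 0.53 for Ighg2c (adjusted p = 0.00222) and 4.93 ± 0.78 for Ighg1 (adjusted p = 0.0082). Both genes passed the filter on low counts through the BMT livers alone, so they had to differ. Their adjusted p-values therefore add no support to the read counts. Without the BMT library of mouse 6, the Ighg1 value was 4.14. By summed CPM the Ighg1 ratio was 30.1, with an exact 95% counting interval of 10 to 148. Ighg3 had 14, 10 and 8 reads in LIV BMT and 0 in every LIV BM library, at least 9.93-fold higher against a floor of 3 counts over the group. Ighg2b had 19, 5 and 16 reads in LIV BMT, against 1, 3 and 3 in LIV BM. Neither Ighg3 nor Ighg2b passed the filter on low counts. Ighm took 57.4 ± 12.4% of heavy chain constant reads in LIV BMT and 87.2 ± 1.05% in LIV BM (exact permutation p = 0.1, no overlap). The Igha share was 6.31 ± 3.90% in LIV BMT and 7.71 ± 2.25% in LIV BM (p = 0.7, exact permutation test). Ighe had 0 reads in all 18 libraries and Ighd had 0 to 4. The gamma genes are close copies, and the reference genome is that of another strain (C57BL/6J), so that reads can be lost or split among them. C57BL/6J carries Ighg2c where BALB/c mice, the strain of the recipients, carry Ighg2a. Ighg2a is not analysed here, so the Ighg2c values may hold reads of either gene and are not a measure of IgG2c alone.

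The light chains gave no such change. Igkc took 89.5 ± 7.20% of light chain constant reads in LIV BMT and 88.7 ± 4.60% in LIV BM (exact permutation p = 0.8). It took 94.4 ± 9.62% in SI BMT and 87.0 ± 12.0% in SI BM, from 2 to 6 and 17 to 78 reads in all. In LI it took 89.0 ± 5.75% with BMT and 96.7 ± 5.77% with BM. The lambda constant genes Iglc1, Iglc2 and Iglc3 held 0 to 15 reads per library, and Iglc4 held 0 in all 18.

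Jchain encodes the small chain that links antibody monomers. It had 0.0531, 0 and 0.0429 CPM in SI BMT, against 0.455, 0.181 and 0.307 CPM in SI BM, which is 2 reads in all against 20. It did not pass the filter on low counts in SI. All 3 BMT libraries were below all 3 BM libraries, and the ratio of summed CPM was 0.0972, with an exact 95% counting interval of 0.011 to 0.4. In LI Jchain had 0.0447, 0.224 and 0.381 CPM with BMT, against 0.407, 0.269 and 0.234 CPM with BM, with overlap and a ratio of 0.72 (0.337 to 1.5). In liver it had 0.530, 1.05 and 0.991 CPM with BMT, against 0.815, 1.05 and 0.652 CPM with BM (log2 fold change 0.19 ± 0.37, adjusted p = 0.787). Both liver groups were above all 4 intestinal groups with no overlap. Jchain reads per Igha read were 0.131 ± 0.125 in SI BMT and 0.137 ± 0.0462 in SI BM (exact permutation p = 1). They were 0.283 ± 0.253 in LI BMT and 0.328 ± 0.0413 in LI BM, and 1.83 ± 1.58 in LIV BMT and 2.66 ± 1.71 in LIV BM (exact permutation p = 0.8 and p = 0.6). Jchain was thus low where Igha was low in SI, and liver held more Jchain than Igha reads in all libraries but the BMT library of mouse 6.

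Pigr, the epithelial carrier of these polymers, fell in both intestinal sets, and no change was detected in liver. In LI it had 788, 1355 and 1484 CPM with BMT, against 5036, 4833 and 5235 CPM with BM. In SI it had 1204, 1188 and 2080 CPM with BMT, against 2746, 3251 and 2709 CPM with BM. In neither set did the treatments overlap, and the BMT library of mouse 10 was the highest of its group in both. The log2 fold change was -2.04 ± 0.23 in LI (adjusted p = 6.02e-05) and -0.90 ± 0.25 in SI (adjusted p = 0.0235). The SI call did not hold without the BMT library of mouse 6 (0.0858) or mouse 9 (0.104), nor without the BM library of mouse 2 (0.0604) or mouse 4 (0.0783). Over 12 alternatives the SI adjusted p ran from 0.000529 to 0.104. In liver Pigr had 1263, 1069 and 1298 CPM with BMT, against 996, 1465 and 892 CPM with BM (0.28 ± 0.24, adjusted p = 0.512).

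General epithelial markers did not fall as a group. The 10 on the list (adhesion, keratin and villus genes such as Epcam, Krt8 and Vil1) summed to 21900 to 27230 CPM in LI BMT, against 16400 to 18830 in LI BM, and to 20330 to 22050 CPM in SI BMT, against 16760 to 18850 in SI BM. In LI 4 of the 10 rose and 1 fell, where 20.4% of all genes were higher and 21% lower. In SI 2 rose and none fell, where 11.6% of all genes were higher and 11.8% lower. With so few genes nothing is read from these shares. Pigr per summed marker CPM was 0.0504 ± 0.014 in LI BMT and 0.284 ± 0.0319 in LI BM. It was 0.0698 ± 0.0231 in SI BMT and 0.163 ± 0.0268 in SI BM (exact permutation p = 0.1 in each set, no overlap). By mean CPM the groups ran from LI BM at 5034 ± 201 and SI BM at 2902 ± 303 to SI BMT at 1491 ± 510, LIV BMT at 1210 ± 123, LI BMT at 1209 ± 370 and LIV BM at 1118 ± 305. The last 4 overlapped with their neighbours, while LI BM stood clear of SI BM, and SI BM of SI BMT.

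**Figure D5:**
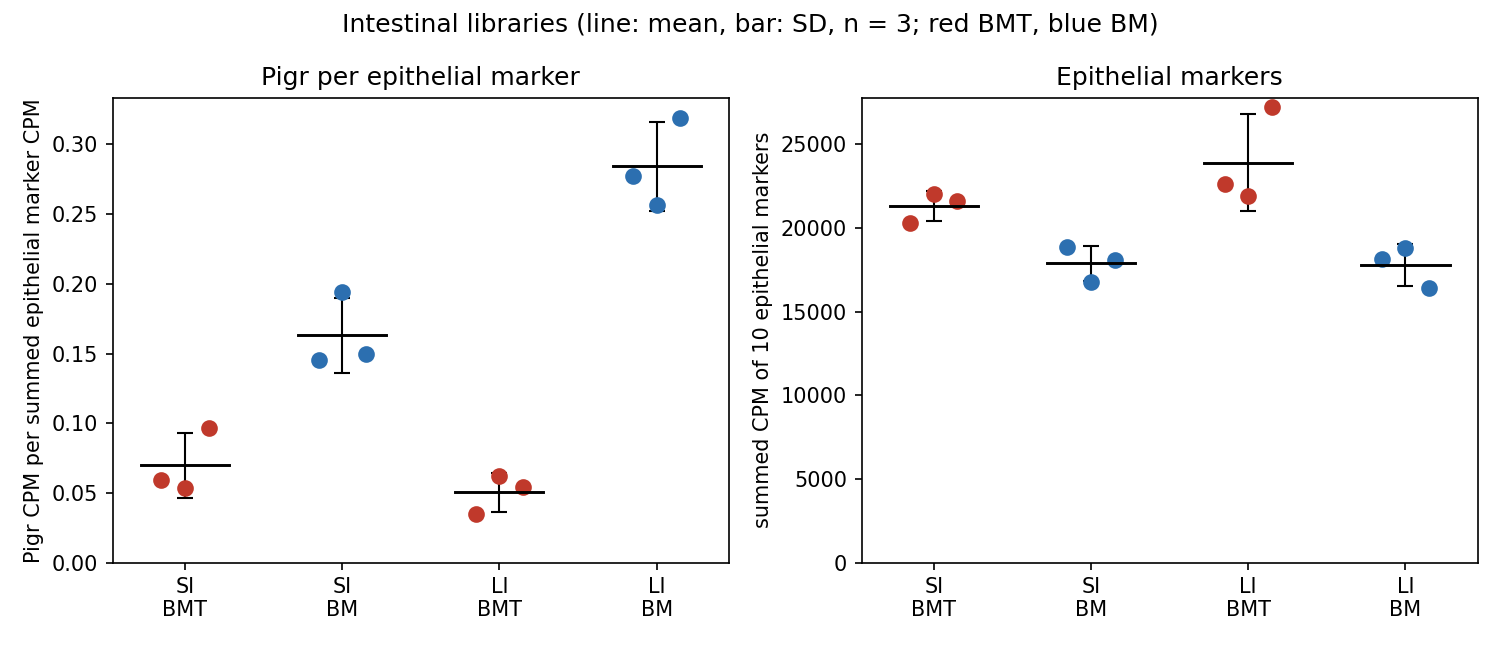
Pigr CPM divided by the summed CPM of 10 epithelial markers (left, vertical) and that sum (right, vertical, CPM) in the intestinal libraries by group (horizontal), with the mean as a line and the SD as a bar. Pigr per marker is lower in BMT than in BM in SI and in LI with no overlap, while the marker sum is higher in BMT.

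Among genes known to raise Pigr, none that was tested was called lower in any tissue. Of 19 such genes (interferon, interleukin, tumor necrosis factor and Toll-like receptor signalling), 6 of 17 tested rose and none fell in SI, with a median log2 fold change of 0.22 against 0.02 over all genes. In LI 11 of 18 rose and none fell (median 0.61). In liver 1 of 17 rose, Il4ra at 0.65 ± 0.17 (adjusted p = 0.0476, and 0.0078 to 0.182 over its alternatives). Of all genes tested, 11.6% were higher in SI, 20.4% in LI and 7.46% in liver. Ifng passed the filter on low counts through BMT alone in SI and LI, and Il17a, at 0 to 2 reads per library, was not tested. For so few genes these shares are not read as a result. Bulk RNA does not show which cells carried these reads, and the part of these genes in the Pigr values was not tested. Ifng, the interferon made by activated T cells, had 67, 84 and 77 reads in SI BMT and 0 in every SI BM library, at least 73.9-fold higher against a floor of 3 counts over the group. In LI it had 210, 216 and 111 reads with BMT, against 0, 0 and 2 with BM. Irf1, an interferon-induced activator of the Pigr gene, rose by 1.03 ± 0.17 in LI (adjusted p = 0.000861) and 0.78 ± 0.16 in SI (0.005, and 0.000263 to 0.0588 over its alternatives). Among 11 Fc receptor and antibody transport genes, B2m, a subunit of the neonatal Fc receptor and of class I molecules, rose by 1.73 ± 0.14 in LI and 1.22 ± 0.18 in SI. Fcamr, a receptor for IgA and IgM, fell by 2.18 on the log2 scale (SE 0.45) in LI, with an adjusted p of 0.00317. In liver Fcgr3, a low-affinity IgG receptor of myeloid cells and NK cells, rose by 1.86 ± 0.22 (adjusted p = 0.00326).

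Cd22, a sialic acid binding receptor that damps B cell receptor signals, rose in liver. It had 1.02, 1.66 and 1.89 CPM in LIV BMT, against 0.181, 0.546 and 0.420 CPM in LIV BM. The treatments did not overlap, at 25, 41 and 40 reads in BMT, against 4, 12 and 9 in BM. The log2 fold change was 2.14 ± 0.42 (adjusted p = 0.0174). The call did not hold in lane 2 libraries alone (0.0839), without the BMT library of mouse 9 (0.0797) or without that of mouse 10 (0.0636), and adjusted p ran from 0.0012 to 0.0839 over 12 alternatives. In LI Cd22 had 17, 7 and 6 reads with BMT, against 1, 3 and 0 with BM, a ratio of summed CPM of 7.72 with an exact 95% counting interval of 2.72 to 30.2. It did not pass the filter on low counts there. In SI it had 1, 4 and 3 reads with BMT, against 2, 2 and 4 with BM, which lies at the floor in both. By mean CPM the order was LIV BMT at 1.52 ± 0.45, LI BMT at 0.454 ± 0.266, LIV BM at 0.382 ± 0.185, SI BM at 0.129 ± 0.0657, SI BMT at 0.118 ± 0.06 and LI BM at 0.0619 ± 0.068. LIV BMT alone stood clear of its neighbour.

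Most genes of the B cell list were low, and those that define the lineage were mostly near 0. Blnk was not low in the intestinal sets and made most of the list's reads there. It had 2528 to 3277 reads in LI BMT and 3476 to 4743 in LI BM. In SI it had 529 to 866 reads with BMT and 801 to 1254 with BM. Pax5, the B lineage regulator, had at most 1 read in every library. Ms4a1 had 0 to 11 reads and Cd79a 0 to 5. Cd79b, a signal chain of the B cell receptor, had 8, 17 and 6 reads in LI BMT, against 0, 0 and 1 in LI BM, and 7, 2 and 3 in LIV BMT, against 8, 3 and 0 in LIV BM. Its counts were highest in SI, at 10, 22 and 14 reads with BMT, against 20, 18 and 6 with BM (log2 fold change 0.07 ± 0.46, adjusted p = 0.935). In liver Cd72, a B cell co-receptor also found on other leukocytes, had 42, 50 and 49 reads with BMT, against 31, 60 and 82 with BM (-0.20 ± 0.33, adjusted p = 0.743). Bank1, a B cell scaffold protein, had 15, 18 and 17 reads in LIV BMT, against 23, 25 and 33 in LIV BM (-0.61 ± 0.28, adjusted p = 0.211). Of 22 B cell genes, 5 were tested in liver with 3 higher (Cd37, Cd22 and Pou2f2), 6 in SI with 3 higher (Pou2f2, Cd37 and Spib) and 4 in LI with 3 higher and Blnk lower. Of all genes tested, 7.46% were higher in liver, 11.6% in SI and 20.4% in LI, where 21% were lower. With so few genes nothing is read from these shares. Cd37 is a leukocyte tetraspanin, Pou2f2 an octamer-binding factor also made by other leukocytes, and Spib a factor of B cells, plasmacytoid cells and gut epithelium. The log2 fold changes of Cd37 were 2.47 ± 0.36 in liver, 1.90 ± 0.32 in SI and 4.34 ± 0.26 in LI. Of 11 genes of Cd22 signalling and its ligands, St6gal1, which makes the sialic acid linkage that Cd22 binds, fell by 2.93 on the log2 scale in LI (SE 0.15, adjusted p = 2.93e-07). In SI it fell by 1.50 (SE 0.41, adjusted p = 0.0225, and 0.00296 to 0.0942 over its alternatives). Ptpn6, the phosphatase that Cd22 recruits, rose by 0.82 ± 0.13 in LI and 0.83 ± 0.18 in SI. Syk and Plcg2, which pass on the B cell receptor signal and also act in other leukocytes, were called higher in liver at 1.14 ± 0.24 and 1.32 ± 0.29, and over their alternatives adjusted p ran from 0.00164 to 0.0825 and from 0.00165 to 0.109.

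Of 18 plasma cell genes, the calls were 4 higher and 0 lower of 14 tested in liver, where 7.46% of all genes were higher and 3.35% lower. They were 3 higher and 3 lower of 13 in SI (11.6% and 11.8% of all genes) and 3 higher and 2 lower of 12 in LI (20.4% and 21%), and with so few genes nothing is read from these shares. Slamf7, a surface receptor of plasma cells, NK cells and activated T cells, rose by 2.63 ± 0.46 in liver, 4.74 ± 0.41 in SI and 5.83 ± 0.46 in LI, with adjusted p up to 0.0557 over its alternatives in liver. Tnfrsf13b, the receptor TACI, rose by 3.11 ± 0.56 in liver (adjusted p = 0.0128, up to 0.0556 over its alternatives). Tent5c, a poly(A) polymerase active in plasma cells and other tissues, was called lower at -1.63 ± 0.21 in SI (adjusted p = 0.000252) and higher at 1.35 ± 0.29 in liver (0.0267). In LI it was called lower at -0.76 ± 0.23 (adjusted p = 0.0238), and over its alternatives adjusted p reached 0.104 in liver and 0.111 in LI. Prdm1 and Irf4, regulators of plasma cells that activated T cells also use, rose in both intestinal sets. Prdm1 rose by 2.10 ± 0.32 in SI (adjusted p = 0.000883) and 1.34 ± 0.31 in LI (0.00542), and Irf4 by 4.92 ± 0.57 in SI (0.000135) and 5.70 ± 0.53 in LI (1.71e-05). Irf4 had 32, 55 and 46 reads in SI BMT, against 2, 0 and 2 in SI BM. Irf4 and Slamf7 in both intestinal sets and Tnfrsf13b in liver passed the filter on low counts through BMT alone. These calls therefore add no support to the read counts. Xbp1, the secretory regulator, which epithelial cells also make, was called lower at -0.53 ± 0.15 in SI and -0.49 ± 0.17 in LI, with adjusted p up to 0.0992 and 0.141 over the alternatives. Tnfrsf17, the survival receptor of plasma cells, had 0 to 2 reads per library. Mzb1, an antibody-folding helper of plasma cells, had 13, 7 and 2 reads in LIV BMT, against 0, 1 and 3 in LIV BM, and 0 in all SI BMT libraries. Of 17 genes of IgA switching and homing, 6 of 10 tested were higher and 2 lower in SI (11.6% and 11.8% of all genes). In LI 7 of 11 were higher and 2 lower (20.4% and 21%). Some low genes passed the filter through BMT alone, such as Il10 in SI (11, 24 and 25 reads with BMT, 0 in every BM library). Of the 17 genes, the 2 that fell in both sets were Ccl28, the epithelial chemokine that draws IgA plasma cells, and Tnfsf13, the plasma cell survival factor APRIL. Ccl28 fell by 3.30 on the log2 scale in LI (SE 0.15, adjusted p = 1.56e-07) and by 1.61 in SI (SE 0.22, adjusted p = 0.000457). Tnfsf13 fell by 1.38 in LI (SE 0.27) and by 1.39 in SI (SE 0.23). Itgb7, the homing integrin chain shared by gut plasma cells and T cells, rose by 4.70 ± 0.31 in SI and 6.39 ± 0.22 in LI.

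Markers of other cells moved with the treatment as well. All 11 neutrophil markers rose in liver, where they summed to 141 to 599 CPM in BMT, against 13.8 to 19.3 in BM. They summed to 664 to 1391 CPM in LI BMT, against 71.9 to 79.4 in LI BM, with 4 of 4 tested higher. Ly6g alone made nearly all of this LI sum, at 656 to 1363 CPM in LI BMT, against 70.7 to 78.7 in LI BM. The other 10 neutrophil markers summed to 5.72 to 28.5 CPM in LI BMT, against 0.703 to 1.22 in LI BM, below the 141 to 598 CPM of the same 10 genes in LIV BMT. In SI all 11 summed to 8.40 to 19.5 CPM with BMT, against 1.76 to 2.82 with BM, with 2 of 4 higher, and Mpo, Elane, Prtn3 and Camp at 0 in SI BM. Macrophage markers rose in 3 of 10 tested in liver (564 to 597 CPM in BMT, against 307 to 555 in BM), 1 of 4 in SI and 4 of 4 in LI. Beside these neutrophil and macrophage counts, 7.46% of all genes tested were higher in liver, 11.6% in SI and 20.4% in LI. Some of these markers passed the filter on low counts through BMT alone. Mpo in liver, for example, had 177, 105 and 56 reads with BMT, against 4, 4 and 1 with BM. The tallies of calls are therefore not read as results. In SI the macrophage sum was 7.34 to 16.0 CPM with BMT and 4.93 to 7.95 with BM, and in LI 21.2 to 74.9 CPM with BMT and 3.95 to 5.19 with BM. Their part in the liver Cd22 and IgG values was not tested.

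The size of the treatment effect was compared between tissues in 1 fit over 18 libraries with mouse number as a block, where 15% of 17275 genes differed between SI and LIV, 18.8% between LI and LIV and 4.91% between SI and LI. Of the 6 members, 5 differed between SI and LIV, 2 between LI and LIV and 1 between SI and LI. The effect on Igha was lower in SI than in liver by a log2 value of -4.65 ± 0.90 (adjusted p = 0.00326), and that on Igkc by -4.27 ± 0.63 (0.000501). The Igha value was -3.82 without mouse 6 and -5.60 without mouse 10. The effect on Ighm was higher in LI than in liver by 3.73 ± 0.62 (adjusted p = 0.000808) and that on Pigr lower by -2.46 ± 0.40 (0.000667). Those of Ighm (1.73 ± 0.55, 0.0465), Jchain (-3.28 ± 0.96, 0.0318) and Pigr (-1.29 ± 0.40, 0.0403) between SI and LIV did not hold in part of the alternatives, where adjusted p reached 0.177, 0.145 and 0.153. Jchain entered this fit through its liver reads. Between SI and LI the effect differed for Igkc (-3.09 ± 0.72, adjusted p = 0.0245), with values up to 0.096 when 1 mouse was left out. For Igha the difference was -3.11 ± 0.86 (adjusted p = 0.0515, and 0.0487 without the block of mouse number). Without that block Ighm and Pigr between SI and LIV did not pass (0.0791 and 0.0722). With the block, the difference between SI and LI was 1.17 ± 0.39 for Pigr (adjusted p = 0.107) and -2.00 ± 0.70 for Ighm (0.119). The larger changes of both genes in LI were thus not shown to exceed those in SI.

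Between the intestinal sets, with mouse number as a block, 22% of genes differed with BMT and 27.1% with BM. With BMT, Igkc was lower in SI than in LI at -1.98 ± 0.59 (adjusted p = 0.0253), a call lost without mouse 9 (0.14) or mouse 10 (0.127), with 0.0188 to 0.14 over the alternatives. With BM, Pigr was lower in SI than in LI at -0.83 ± 0.28 (adjusted p = 0.0383), and adjusted p ran from 0.0155 to 0.163 over the alternatives, above the threshold without mouse 2, 4, 5 or 9. The other 5 members in each treatment did not pass, Igha at -1.79 ± 0.69 with BMT (0.078) and 1.32 ± 0.52 with BM (0.0761) among them. Without the block of mouse number the Pigr value did not pass (adjusted p = 0.0558), while Jchain with BMT (0.0499) and Ighm with BM (0.0436) did.

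Across the 18 libraries, after the mean of each code was subtracted, the member patterns fell apart in the same way, given here as a description since all libraries share treatment and code. Igha and Igkc were alike (Pearson r = 0.885 on log2(CPM + 1)), Ighm and Pigr were opposed (r = -0.87), and Ighm and Igkc showed little relation (r = -0.245). Among 12533 genes, those most like Ighm were Bin2 (0.977), P2ry10 (0.977) and Fasl (0.976), the last encoding the death ligand of cytotoxic lymphocytes. Among those most like Pigr were Abat (0.974) and Cacna2d2 (0.961). Those most like Cd22 were Csf2rb2 (0.943), Lcn2 (0.899) and Osbpl3 (0.896), Lcn2 encoding a siderophore-binding protein of neutrophils and inflamed epithelium. For Igha they were Bmp1 (0.85), Barx2 (0.843) and Sox9 (0.84), for Igkc Bambi (0.842), Bmp1 (0.828) and Snhg8 (0.816), and for Jchain Ihh (0.827), Dap (0.76) and Tmem143 (0.751). Igha, Igkc and Jchain are low counts, which limits these values.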

How the data were processed

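RNA sequencing counts of 18 libraries were used. The table the authors deposited holds raw, whole counts for each gene, and a column of gene length (bases of exon). Per the submitters' processing notes the reads went through FastQC 0.11.9, STAR 2.7.0e and featureCounts 1.6.3, on GRCm38.p5. Neither the annotation nor whether strand was used in counting is known from the sources used here, so reads of Cd22 and of the antisense gene Gm29439, which overlaps its exons and is listed at 0 counts, may not be separable. The library kit was stranded with polyA selection, per the labels' protocols. Of the gene IDs, 53274 were matched to symbols, and 0.00257% of counts lay in unmatched IDs.

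Groups followed the codes and mouse numbers of the library descriptions. Replicates of 1 group differed beyond sampling noise (chi-square per degree of freedom 9.86 to 187), so none was a duplicate. Each tissue was fitted alone with edgeR 4.0.16 (limma 3.58.1, R 4.3.3), with its group-wise expression filter, TMM normalization and a two-sided quasi-likelihood test, with Benjamini-Hochberg adjustment over all genes tested. Differences between tissues used 1 fit of 18 libraries with mouse number as a block, since the descriptions repeat the 6 numbers in each tissue. That a number is 1 animal is read from the codes. Libraries of 1 number, after the group means were taken off, correlated with r of -0.0871 to 0.296. CPM scales counts to the library total in the usual way, and CPM per kilobase divides by the deposited length. Ratios were compared with an exact two-sided permutation test in scipy 1.17.1. Sequences come from RefSeq (GRCm38.p6) and GENCODE M21 tables. The code was tested on simulated data.

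The members and the 17 gene lists were chosen with earlier results of these data known. Named were the 6 members and the antibody constant genes whatever their result, up to 3 called genes of smallest p per list and tissue, a set of B and plasma cell genes, and the 3 genes most like each member by Pearson r among genes of at least 1 mean CPM. Pax5, Xbp1, Fcamr, Tnfsf13 and the Irf1 and Syk values of the second tissue were named after their values were seen. A few genes that this rule names are not reported here. Alternatives were RLE scaling, DESeq2 1.42.0, no filter, a replicate block, other library sizes, 1 joint fit, lane 2 libraries alone and each library left out. Of the libraries, 4 lay on lane 1.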

Additional observations from a re-analysis of the deposited data

Results flagged for a closer look

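The effect of added T cells differed between tissues for several members by a test of the difference itself, in the edgeR fit of 18 libraries with mouse number as a block (values are log2, adjusted over 17275 genes). Between SI and LIV the difference was -4.65 for Igha (adjusted p = 0.00326), -4.27 for Igkc (0.000501), 1.73 for Ighm (0.0465), -3.28 for Jchain (0.0318) and -1.29 for Pigr (0.0403). Between LI and LIV it was 3.73 for Ighm (adjusted p = 0.000808) and -2.46 for Pigr (0.000667). Between SI and LI it was -3.09 for Igkc (adjusted p = 0.0245), a call lost in 4 alternatives. Between SI and LIV the calls of Ighm, Jchain and Pigr were lost in 7, 4 and 6 alternatives. Jchain had too few reads to be tested in SI alone and entered this fit through its liver reads. All comparisons with LIV share the same liver libraries, so they are not independent of each other. T cell markers also rose by a median of 5.64 in SI and 7.42 in LI against 3.86 in liver, and their part in these differences was not tested.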

How the results depend on the processing

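Over 128 results and 1397 alternative values, 1254 stayed the same, 113 lost their call, 21 gained one and 9 changed sign. For a fold change, the same means that its direction and side of the threshold were kept. For a ratio within a library, it means that the difference of means moved by less than the larger group SD. The changes of sign were all of values that had not passed the test. Jchain in LIV was -0.190 with lane 2 libraries only and ran from -0.0105 to 0.408 with 1 library left out, Igha in LI from -0.678 to 0.0666, the Cd22 difference of LI and LIV from -0.124 to 1.425 with 1 mouse left out, and SI over LI with BM from -0.107 to 0.251 for Jchain and from -0.0128 to 2.39 for Cd22. These genes had few reads.

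The count of genes called was 1528 in LIV, 3420 in SI and 6157 in LI. With 1 library left out it ran from 569 (without the BMT library of mouse 9) to 2617 (without the BM library of mouse 5) in LIV, from 2086 (without the BM library of mouse 4) to 3775 in SI and from 4821 to 7220 in LI. With 1 mouse left out the differences between tissues ran from 1144 to 2504 for SI and LIV (2588 with all), 1844 to 3165 for LI and LIV (3242) and 297 to 1121 for SI and LI (848), the last being 1842 with no filter on low counts. SI over LI ran from 2404 to 3912 with BMT (3799) and from 2829 to 4997 with BM (4689). The title numbers stand for different mouse numbers in BMT and BM, so they were not taken as pairs (r of same-numbered libraries -0.205 to 0.373). With them as a replicate block, 1630, 3028 and 5367 genes were called in LIV, SI and LI. Without the replicate block of mouse, 2723, 3366 and 881 genes were called in the 3 tissue differences, and Ighm (0.0791) and Pigr (0.0722) between SI and LIV lost their calls. Depth limits the intestinal values of Jchain and Cd22, and of Igha and Igkc in SI BMT, which rest on under 10 reads per library except where printed. Causes of these changes were not tested.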
